A study of Homo sapiens with 6 samples.

Results

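ATP5C1 and OMA1 are nuclear genes whose proteins work in the mitochondrial inner membrane, and both gave rise to circular RNAs (circRNAs) in Ishikawa cells. The circRNAs were taken by host gene name from the authors' table, which gave 6 of its 4814 circRNAs: 2 of ATP5C1 and 4 of OMA1. The study sequenced circRNAs of Ishikawa cells, an established human endometrial carcinoma line used to study steroid hormone responses. The groups were 3 control libraries with no treatment and 3 libraries of cells treated with MPA, an abbreviation that the labels left unexplained, as they did dose and duration. The labels do not say whether the libraries came from separate cultures, so each p-value below measures spread among libraries that may be technical.

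Both genes were selected on values measured in these data: ATP5C1 was chosen by the high read count of hsa_circ_0007292, and OMA1 by the lower estimate of hsa_circ_0002316 with MPA. The level of the former and all OMA1 differences between the groups are therefore descriptions, given with no test.

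As background, ATP5C1, now named ATP5F1C, encodes the gamma subunit of ATP synthase. This subunit forms the central shaft that turns inside the catalytic head when protons flow back through the inner membrane. OMA1 is a zinc metalloprotease of the same membrane that becomes active when the membrane potential is lost. It then cuts OPA1, which ends inner membrane fusion, and DELE1, which carries the alarm to the kinase EIF2AK1 and the integrated stress response. A circRNA forms when the end of an exon is spliced back to the start of the same or an upstream exon, and only reads that cross this back-splice junction count here.

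The junctions are shown first because they are what was counted. The exons were found by following the transcript accession of the table to GENCODE release 29 (GRCh38). There, exactly 1 run of exons had both the genomic span and the spliced length that the table gave, for each of the 5 exonic circRNAs. The end of the closing exon is in lower case and the start of the exon it joins is in capitals, 5′ to 3′. Windows hold 30 bases on each side, or 15 where the circle begins in the 5′ untranslated region.
ATP5C1 hsa_circ_0007292, exon 8 to exon 3: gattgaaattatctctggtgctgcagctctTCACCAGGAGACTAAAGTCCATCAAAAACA
ATP5C1 hsa_circ_0017673, exon 8 to exon 4: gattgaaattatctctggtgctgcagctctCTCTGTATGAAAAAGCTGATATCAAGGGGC
OMA1 hsa_circ_0002316, exon 8 to exon 2: agacttatacctcagGTAGTCAAGTGAAAA
OMA1 hsa_circ_0000072, exon 8 to exon 3: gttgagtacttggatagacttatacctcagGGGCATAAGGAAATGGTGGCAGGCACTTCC
OMA1 hsa_circ_0012721, exon 7 to exon 2: ctgcttgctgcaaagGTAGTCAAGTGAAAA
OMA1, no circBase identifier, exon 8 into exon 2: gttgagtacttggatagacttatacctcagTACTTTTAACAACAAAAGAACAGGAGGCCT

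In both genes almost every circle closed at the end of exon 8. This site was used by 5 of the 6 circRNAs and by 223 of their 227 reads (98.2%). It took all 136 reads of ATP5C1, and 87 of the 91 reads of OMA1 (95.6%). Of these reads 133 came from hsa_circ_0007292, which was chosen for its high reads. For comparison, in 162 host genes with 2 or more circRNAs and 30 or more reads, the closing site of the most abundant circle took a median of 61.7%. It took all reads in 8 of these genes, and in 46.3% another circle shared it. The circles differed mainly in where they began. Exon 8 is the last but 1 of the 9 exons in both transcripts that the table names. For ATP5C1 this depends on the transcript, since another annotated form has 10 exons with a 37-base exon after exon 8. Among 3879 exonic circRNAs of the table that could be matched to exons in the same way, 10.5% (408) closed at the last exon but 1, so the position is common.

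**Figure D1:**
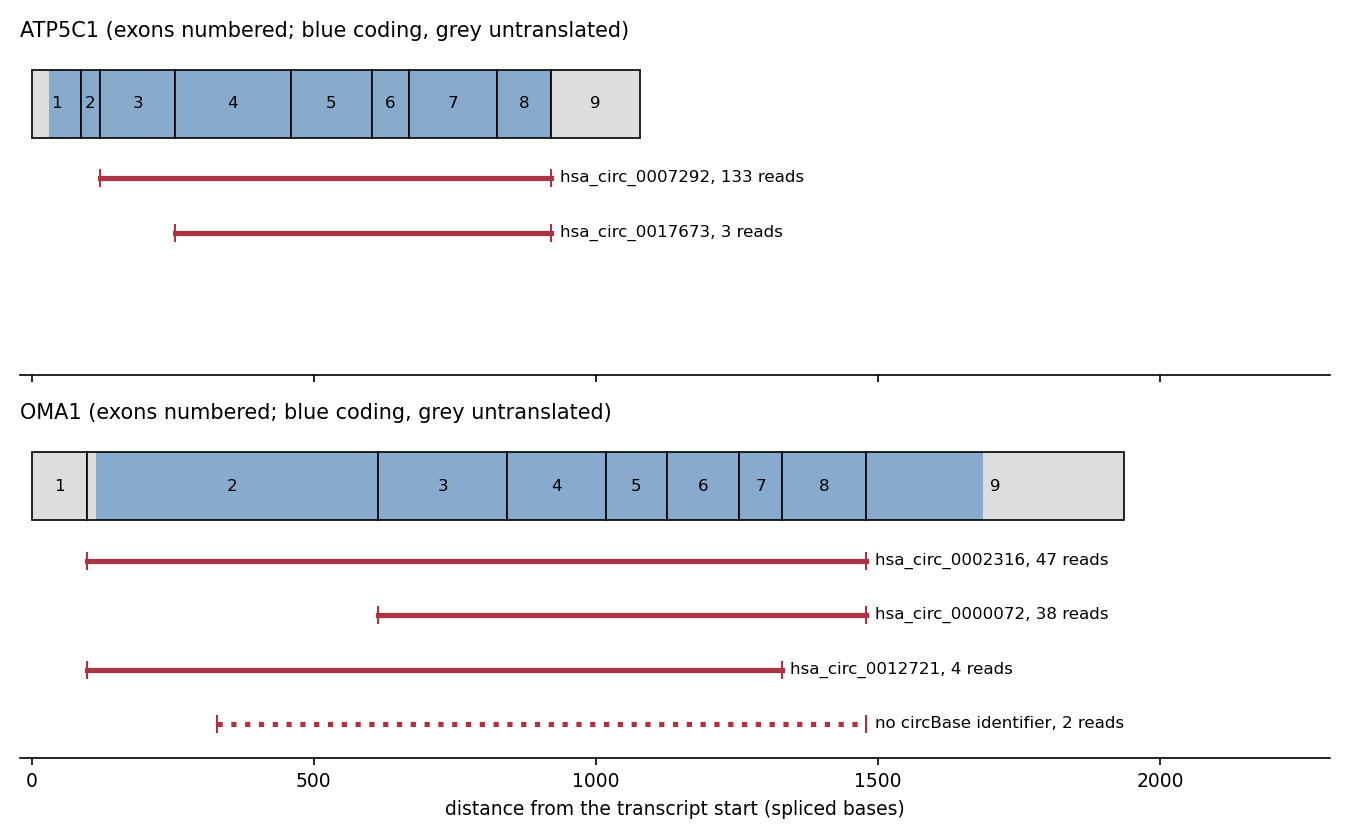
Exons of the ATP5C1 and OMA1 transcripts drawn to scale along the spliced transcript (x axis, bases from its start), coding parts in blue and untranslated parts in grey; each red line spans 1 circRNA, with its reads over the 6 libraries. All lines but that of hsa_circ_0012721 end at exon 8; the dotted line begins inside exon 2 and its inner structure is not known.

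The shared closing exons are shown whole, with ATP5C1 exon 3, the exon that separates the ATP5C1 circles. On GRCh38, ATP5C1 exon 3 lies at chr10:7797047-7797178 and exon 8 at chr10:7802758-7802854, both on the plus strand. OMA1 exon 8 lies at chr1:58506060-58506209 on the minus strand. All 3 exons are wholly coding.
ATP5C1 exon 3: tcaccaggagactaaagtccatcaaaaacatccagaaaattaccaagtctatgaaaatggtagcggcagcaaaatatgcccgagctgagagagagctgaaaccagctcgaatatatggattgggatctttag
ATP5C1 exon 8: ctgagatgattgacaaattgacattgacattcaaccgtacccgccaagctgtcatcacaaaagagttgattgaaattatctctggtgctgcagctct
OMA1 exon 8: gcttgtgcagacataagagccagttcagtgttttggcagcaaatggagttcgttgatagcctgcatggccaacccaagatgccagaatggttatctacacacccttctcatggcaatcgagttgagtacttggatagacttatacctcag

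hsa_circ_0007292 was the main circle of ATP5C1 (hg19, chromosome 10, 7839010 to 7844817, plus strand, exonic, 799 bases). It joined the end of exon 8 to the start of exon 3 and held 6 exons, all coding, that carry codons 31 to 297. It had 22, 19 and 28 reads in control libraries 1 to 3 and 27, 18 and 19 in MPA libraries 1 to 3. The groups overlapped, with the highest value in control 3 and the lowest in MPA 2. The means were 23 ± 4.58 in control and 21.3 ± 4.93 with MPA (SD, n = 3 each). Among all circRNAs of a library it ranked 4, 2 and 1 in control libraries 1 to 3 and 2, 7 and 8 with MPA. Over the 6 libraries it came second, between hsa_circ_0000284 of the kinase gene HIPK3 with 167 reads and hsa_circ_0002805 of the zinc finger gene ZBTB46 with 121, against its own 133.

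As a share of a library's junction reads, hsa_circ_0007292 ran from 0.348% in MPA 3 (95% exact binomial interval 0.21 to 0.543) to 0.748% in control 3 (0.498 to 1.08). These intervals, which cover counting error only, overlapped, and such overlap is no test of a difference between the libraries. MPA 3 was also the deepest library, at 5454 junction reads, and control 3 was among the shallowest, at 3743; the part of depth in these shares was not tested. The means were 0.589% ± 0.138 in control and 0.456% ± 0.133 with MPA (SD, n = 3 each).

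The comparison of MPA with control asked whether the treatment went with a change in these circles. After TMM scaling the log2 fold change of hsa_circ_0007292 was -0.32 (SE 0.364, 95% interval -1.04 to 0.39), which missed the threshold of 0.05 (adjusted p = 0.936 from edgeR over all tested circRNAs). The interval held a fall of 2-fold but not a rise of 2-fold. The estimate was -0.64 without MPA 1 and -0.19 without control 3. A circRNA was tested when its reads averaged 5 or more over the libraries, which left 91, among them 3 of the 6 circRNAs of these genes. Of the 91, 0 passed in edgeR, which is 0%, with 2 at an unadjusted p under 0.05, and DESeq2 likewise gave 0 and 2. Only 8 of the 91 had a 95% interval that excluded both a 2-fold rise and a 2-fold fall. That 0 passed therefore does not show that levels were unchanged. The median log2 fold change over the 91 was 0.14.

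**Figure D2:**
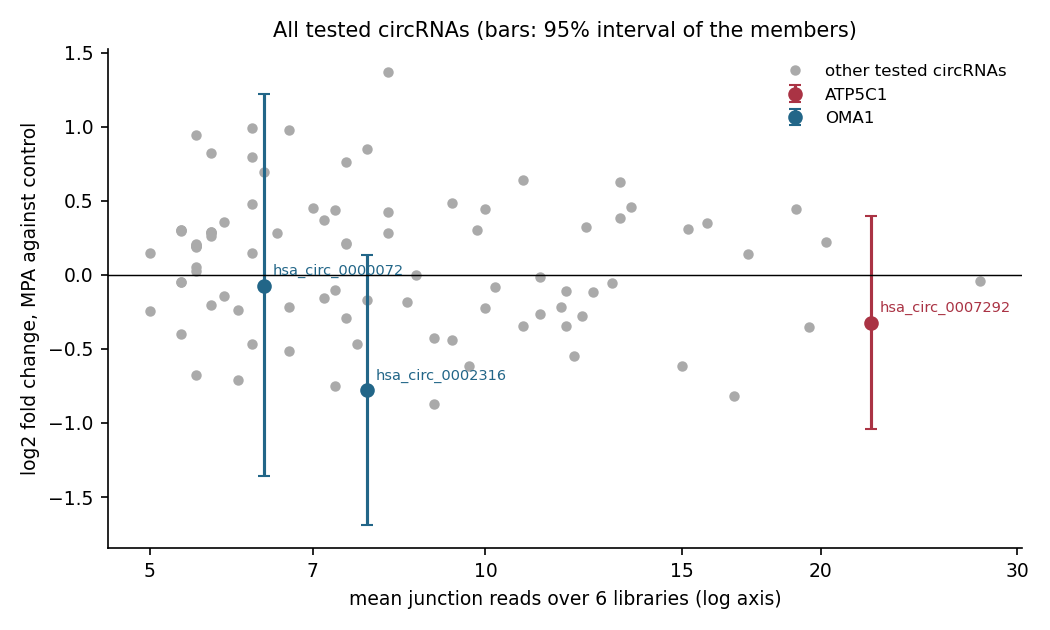
Log2 fold change of MPA against control (y axis) by mean junction reads over the 6 libraries (x axis, log scale) for all 91 tested circRNAs; colours mark those of ATP5C1 and OMA1 with their 95% intervals. The coloured points lie at -0.32 (hsa_circ_0007292), -0.78 (hsa_circ_0002316) and -0.07 (hsa_circ_0000072); the OMA1 points are shown as a description, with no test.

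The other ATP5C1 circle, hsa_circ_0017673 (chromosome 10, 7840953 to 7844817, 667 bases), lacked exon 3 and joined exon 8 to exon 4. It had 3 reads, all in MPA 3, and 0 in each of the other libraries. There it took 13.6% of the 22 ATP5C1 reads (95% exact binomial interval 2.91 to 34.9). A count of 0 allowed a share of all junction reads of up to 0.0671% to 0.0802% (3 counts) in the 5 other libraries, above the 0.055% seen in MPA 3. A difference between libraries was therefore not detectable at this depth.

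Nearly all ATP5C1 reads came from 1 junction. hsa_circ_0007292 held 97.8% of the ATP5C1 reads over all libraries, 100% in each library but MPA 3 and 86.4% there. Because only MPA 3 differed, every regrouping of the libraries gives a difference of the same size, so a permutation test could not decide. For comparison, 162 host genes had 2 or more circRNAs and 30 or more reads; the most abundant circle held a median of 54.8% of their reads. ATP5C1 ranked first of the 162 by this share, and OMA1 ranked 88. The ranking left out host genes with only 1 circRNA, such as HIPK3 with 167 reads, all of 1 circle. ATP5C1 entered the ranking only through the 3 reads of hsa_circ_0017673 in MPA 3. ATP5C1 was chosen by the high reads of hsa_circ_0007292, which enter the share of its main circle, so its share and rank are descriptions only.

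With all ATP5C1 reads summed, the libraries had 22, 19 and 28 in control and 27, 18 and 22 with MPA. ATP5C1 was eighth of 2531 host genes by reads, while XPO1, the nuclear export gene at the top, had 222 reads spread over 15 circRNAs. The share of junction reads was 0.589% ± 0.138 in control and 0.474% ± 0.113 with MPA (SD, n = 3 each), a difference within the spread between libraries (two-sided exact permutation p = 0.4). The difference of -0.114 percentage points became -0.0347 without control 3 and -0.179 without MPA 1. On the log2 scale the summed reads differed by -0.27 (SE 0.321), with an adjusted p of 0.946 in edgeR. Of 180 host genes tested in this way 0 passed, again 0%, with 3 at an unadjusted edgeR p under 0.05 and 0 past the threshold in DESeq2.

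OMA1 divided its reads between a longer and a shorter circle that differ by exon 2. hsa_circ_0002316 (chromosome 1, 58971732 to 59004982, minus strand, exonic, 1381 bases) held exons 2 to 8. These are 16 bases of 5′ untranslated region, the start codon and codons 1 to 455 of 524. hsa_circ_0000072 (chromosome 1, 58971732 to 59002413, 865 bases) held exons 3 to 8, which carry codons 167 to 455. The table lists 21 diseases for hsa_circ_0000072 and none for the other circles of either gene, which is the authors' annotation.

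Control libraries held 10, 10 and 8 reads of hsa_circ_0002316, and MPA libraries held 6, 8 and 5. The groups met at 8 reads, in control 3 and MPA 2. The means were 9.33 ± 1.15 and 6.33 ± 1.53 (SD, n = 3 each). The MPA libraries were the deeper ones, at 4339 to 5454 junction reads against 3740 to 4316. As a share of junction reads the means were 0.238% ± 0.0273 and 0.137% ± 0.0464. The fitted log2 fold change was -0.78 (SE 0.463, 95% interval -1.69 to 0.13), a value that chose this gene and supports nothing further. It was -1.03 without MPA 2 and -0.62 without MPA 3.

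hsa_circ_0000072 had 3, 8 and 7 reads in control and 8, 6 and 6 with MPA. Its lowest value was in control 1 and the groups overlapped. The means were 6 ± 2.65 and 6.67 ± 1.15 (SD, n = 3 each), with a log2 fold change of -0.07 (SE 0.656, 95% interval -1.36 to 1.22). The sign of this value changed with the library left out: it was 0.23 without control 2. The interval includes both a 2-fold rise and a 2-fold fall, so the shorter circle cannot be said to have kept its level. Whether the longer and the shorter circle differed in response was not tested. By reads, hsa_circ_0002316 with 47 stood just below 3 circRNAs of MGA, NFATC3 and BAGE3 with 49 each and just above hsa_circ_0000992 of PRKD3 with 46. hsa_circ_0000072 with 38 stood between hsa_circ_0000471 of N4BP2L2 with 39 and 5 circRNAs with 37.

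**Figure D3:**
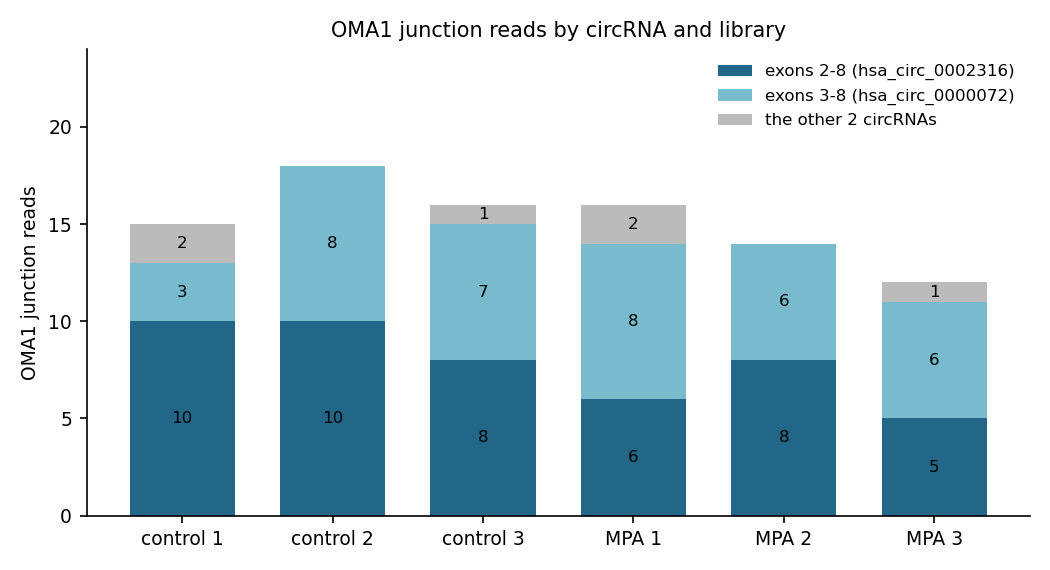
OMA1 junction reads in each of the 6 libraries (y axis, reads; bars stacked by circRNA, numbers give the reads). The longer circle of exons 2 to 8 ran from 5 to 10 reads and the shorter one of exons 3 to 8 from 3 to 8.

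Among reads that joined exon 8 to exon 2 or exon 3, the exon 2 start took 76.9%, 55.6% and 53.3% in control libraries 1 to 3, and 42.9%, 57.1% and 45.5% in MPA libraries 1 to 3. The groups overlapped, since MPA 2 lay above control 2 and control 3. The means were 61.9% ± 13 and 48.5% ± 7.61 (SD, n = 3 each). Each library had only 11 to 18 such reads, and the exact interval in control 1 alone reached from 46.2% to 95%. Over all 6 libraries the exon 2 start took 47 of 85 reads, 55.3% (95% exact binomial interval 44.1 to 66.1). This interval takes the reads of all libraries as 1 pool and covers counting error only, not the spread between libraries. The longer circle averaged 7.83 reads and the shorter 6.33, and the longer had more reads in 4 of the 6 libraries.

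The remaining OMA1 circles were rare. hsa_circ_0012721 (chromosome 1, 58992933 to 59004982, 1231 bases) began at exon 2 like hsa_circ_0002316 but closed at exon 7. It had 2, 0 and 1 reads in control and 0, 0 and 1 with MPA. The circRNA without a circBase identifier (chromosome 1, 58971732 to 59004751) had 2 reads, both in MPA 1. The authors classed it as sense overlapping, and its length of 33020 bases equals its whole genomic span, so no splicing was assumed for it. Measured from the start of hsa_circ_0002316, its start lay 231 bases into the 516-base exon 2, directly after an AG. The last 2 bases of exon 8 are also AG, so these letters alone leave the exact joining point uncertain by 2 bases.

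**Figure D4:**
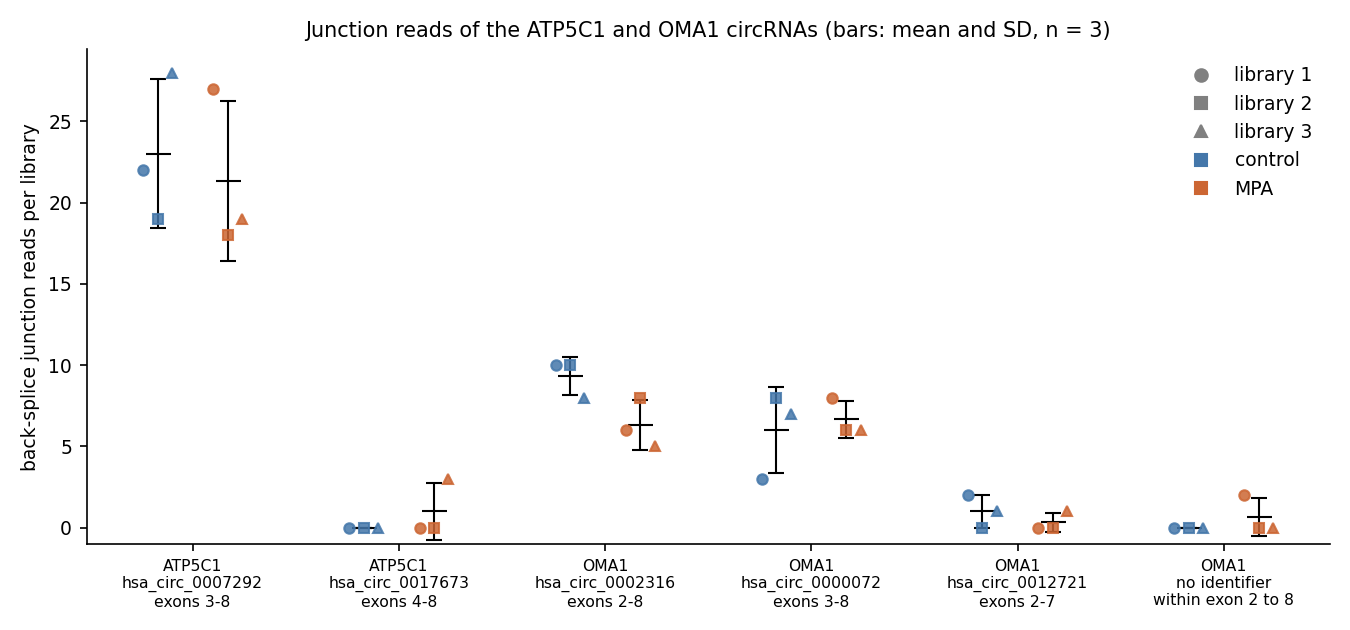
Junction reads per library (y axis) of the 6 circRNAs (x axis), with 1 point per library, control in blue and MPA in orange; black bars give the mean and SD (n = 3). hsa_circ_0007292 stands at 18 to 28 reads, the main OMA1 circles at 3 to 10, and the other 3 circles at 0 to 3.

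All OMA1 reads together came to 15, 18 and 16 in control and 16, 14 and 12 with MPA. The values overlapped, with control 1 below MPA 1. OMA1 was 24th of the 2531 host genes, with 0.419% ± 0.0673 of the junction reads in control and 0.3% ± 0.0717 with MPA (SD, n = 3 each). The summed log2 fold change was -0.44 (SE 0.371, 95% interval -1.17 to 0.29). This value and its interval are descriptions only, since the sum holds the reads of hsa_circ_0002316 that chose the gene. The summed log2 fold change was -0.29 without MPA 3, where the difference in share went from -0.119 to -0.0784 percentage points.

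Between the genes, hsa_circ_0007292 was read more often than hsa_circ_0002316 in all 6 libraries, by 1.9 to 4.5 times. A junction read counts 1 site per circle, so no length enters this ratio. Summed per gene, OMA1 had from 0.545 times the ATP5C1 reads in MPA 3 to 0.947 times in control 2.

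The circles of both genes held more exons than the median matched circRNA, though such numbers were not rare. hsa_circ_0007292 and hsa_circ_0000072 each held 6 exons and hsa_circ_0002316 held 7. The median of the matched circRNAs was 4 exons, and 31.3% held 6 or more; among the 76 that also passed the read filter the median was 3 and the share 18.4%. Their lengths of 799, 865 and 1381 bases compare with a median of 546. Of the matched circRNAs, 30.3% were at least as long as hsa_circ_0007292 and 11.9% at least as long as hsa_circ_0002316. Among the 76 the median was 633 bases, and these shares were 32.9% and 11.8%. None of the 5 exonic circles had a length divisible by 3: each left a remainder of 1, as did 31.7% of the matched circRNAs. A reading frame that passes the junction is therefore shifted. Read from its start codon, the hsa_circ_0002316 sequence held 458 codons before a stop, 3 of them past the junction. Translation was not measured, and these counts describe the letters only.

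The introns around the circles differed between the genes. The OMA1 circles that close at exon 8 were followed by an intron of 24885 bases, against a median of 5733 after the matched circRNAs, of which 11.6% had one as long or longer. hsa_circ_0002316 was preceded by an intron of 7392 bases and hsa_circ_0000072 by one of 2053. hsa_circ_0007292 lay between shorter introns, 891 bases before it and 4804 after it. The median before the matched circRNAs was 6491 bases, and 5.78% had an upstream intron of 891 bases or fewer. Among the 76 matched circRNAs that passed the read filter, introns were longer: medians of 16516 bases before and 17140 after, with 2.63% as short before as hsa_circ_0007292 and 27.6% as long after as OMA1.

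**Figure D5:**
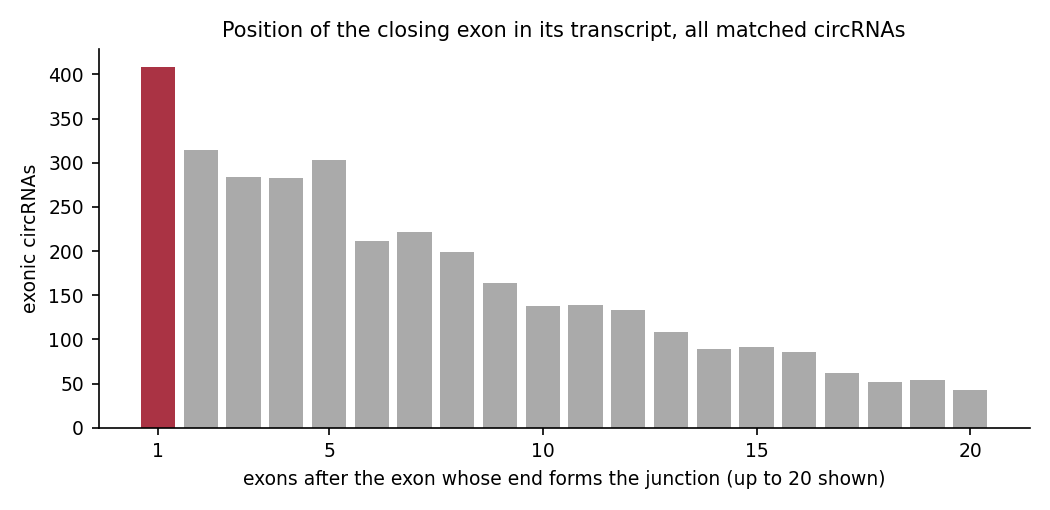
Number of matched exonic circRNAs (y axis) by how many exons follow the exon at which the circle closes (x axis, up to 20; 495 circRNAs with more are not shown). The red bar, 408 circRNAs closing at the last exon but 1, is the class that holds the exon 8 circles of ATP5C1 and OMA1.

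Over 7 lists of mitochondrial genes, 42 hosts gave 66 circRNAs and 517 junction reads (1.98% of all). ATP5C1 and OMA1 accounted for 43.9% of these reads. Since ATP5C1 was chosen for its high reads and the lists with earlier results known, this share is a description only. The only list members among the 91 tested circRNAs were hsa_circ_0007292 and the OMA1 circles hsa_circ_0002316 and hsa_circ_0000072, so the lists held 0 other circRNAs to count as passing in either direction.

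Of the ATP synthase subunits and assembly factors, only ATP5H besides ATP5C1 had a circRNA. It encodes a subunit of the peripheral stalk, and hsa_circ_0006942 had 3 reads, 2 in control 1 and 1 in MPA 3. Complexes I to IV of the respiratory chain had 11 circRNAs with 83 reads. The most abundant, hsa_circ_0001118 of the complex I subunit NDUFA10, had 6, 1 and 4 reads in control and 2, 8 and 2 with MPA. Summed over its 4 circRNAs, NDUFA10 gave -0.52 on the log2 scale (SE 0.665) and did not pass in edgeR (adjusted p = 0.946). The NDUFA10 sum was named after its values were seen, so it serves as a description. Respiratory chain assembly factors had 8 circRNAs with 26 reads, the highest being hsa_circ_0004994 of UQCC1, a complex III assembly factor, with 5.

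Around OMA1, inner membrane proteases and factors of mitochondrial membrane shape, not all of the inner membrane, had 11 further circRNAs of 9 genes, with 35 reads. AFG3L2, a subunit of the protease that faces the matrix, had 9 reads in 3 circRNAs, and YME1L1, the protease that cuts OPA1 in unstressed cells, had 2 reads. OPA1 itself was not among the host genes listed. hsa_circ_0006400 of AFG3L2, with 4 reads, was 1 of 6 circRNAs tied at the top of this list. Of the signalling genes that act after OMA1, EIF2AK1 had 11 reads in 3 circRNAs, and hsa_circ_0001673 of EIF2AK1 had 0, 0 and 2 in control and 1, 4 and 0 with MPA.

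Import, carrier and calcium uptake genes had 17 circRNAs with 90 reads. Their most abundant was hsa_circ_0002224, assigned to TIMM23B, a copy of the import channel gene TIMM23, with 1, 2 and 4 reads in control and 1, 1 and 5 with MPA. Because these copies are almost the same in sequence, which of them the reads came from is uncertain. The mitochondrial ribosome had 7 circRNAs with 38 reads, led by hsa_circ_0000384 of the small subunit protein MRPS35 with 1, 5 and 0 in control and 5, 2 and 4 with MPA. Without ATP5C1 and OMA1, no list's share of reads separated the groups (smallest two-sided exact permutation p = 0.4 over the 7 lists). The lists then held only 3 to 90 reads each and were chosen with earlier results known. Their shares are therefore descriptions, and cannot show whether the circles of these genes changed with MPA.

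The tested circRNAs whose log2 CPM followed hsa_circ_0007292 most closely over the 6 libraries were hsa_circ_0007364 of the phosphatase gene PTP4A2, hsa_circ_0001727 of ZKSCAN1 and hsa_circ_0000231 of ARHGAP12, with Pearson's r of 0.91, 0.87 and 0.86. For hsa_circ_0002316 they were hsa_circ_0000992 of the protein kinase gene PRKD3, hsa_circ_0001492 of ERBB2IP and hsa_circ_0061259 of BAGE3, at 0.88, 0.87 and 0.85. These values are the highest among many and share the same 6 libraries and their scaling, so they serve as a description only. Between hsa_circ_0007292 and hsa_circ_0002316 r was 0.40, and between both main OMA1 circles it was 0.02.

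Library totals ran from 3740 to 5454 junction reads, 26060 in all, and the shallowest MPA library (4339) lay just above the deepest control library (4316). Of 10 epithelial and endometrial marker genes 3 had a circRNA (CDH1, EPCAM and PAX8), with 0 to 1 reads per control library and 0 to 5 per MPA library. Of 12 markers of other cell types only FBN1 had one, with 0 to 1 and 0 to 2 reads. Junction reads are no measure of a gene's mRNA, so this is a weak check of the cell type, and the part of these genes in the results was not tested. Fewer cells and less circRNA per cell cannot be told apart in such libraries.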

How the data were processed

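The authors deposited a table of raw counts: for every circRNA, the reads across its back-splice junction in each library, per the file headers. The other deposited value used here, the predicted length in bases, is another column of the authors' annotation. CASAVA 1.8, BWA and hg19 appear, without roles, in the submitters' processing notes; how circRNAs were called is not given in the sources used. A further 6 per-library columns of log CPM values were not used.

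circRNAs, and sums per host gene, with a mean of at least 5 reads were tested with edgeR 4.0.16 (R 4.3.3, TMM, robust quasi-likelihood, Benjamini-Hochberg at 0.05). DESeq2 1.42.0 was the alternative. The edgeR fit was tried on counts simulated with the dispersion fitted to these data, which does not establish its power in the real libraries. Standard errors were computed back from the p-values. Shares were compared by exact permutation tests, whose smallest possible p was 0.1. For the share of the main ATP5C1 circle the test could not decide, since only 1 library differed. Alternatives covered scaling, the filter, a replicate block and leaving out each library.

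Exons and sequences came from GENCODE release 29 (GRCh38) transcripts. Of 4303 exonic circRNAs, 90.1% matched 1 run of exons by span and length; no coordinate was converted. The RefSeq table (GRCh38) gave only gene names and transcripts. Every pair of libraries within a group differed beyond sampling noise (largest chi-square p = 0.00581).

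The genes and lists were chosen with earlier results of these data known. Named were every ATP5C1 and OMA1 circRNA, the most abundant other circRNA of each list, all that passed the filter, the 3 most alike by Pearson's r and the neighbours in mean reads; AFG3L2, YME1L1, OPA1, EIF2AK1 and NDUFA10 sums were chosen after their values were seen. Other steps used scipy 1.17.1 and pandas 2.3.3 under Python 3.11.15, and matplotlib 3.10.9 for plots.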

Additional observations from a re-analysis of the deposited data

How the results depend on the processing

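Of 118 values under alternative settings, 111 kept their direction or count. These include OMA1 differences. OMA1 was chosen by the lower estimate of hsa_circ_0002316 in these libraries, so a kept direction of its differences is a description and supports nothing further. For the shares, the replicate block alters only the p-value, so its values equal the main ones and were counted as kept by construction. The number of circRNAs past the threshold was 0 under every alternative but 1, leaving out control 2, where it was 1; host genes likewise ranged from 0 to 1 with a library left out, both calls being RAB3IP. The log2 fold change of hsa_circ_0000072 changed sign with 3 libraries left out, ranging from -0.36 to 0.23 (0.23 without control 2, 0.01 without control 3, 0.02 without MPA 3); the cause was not tested. With a library left out, hsa_circ_0007292 ranged from -0.64 to -0.19 and hsa_circ_0002316 from -1.03 to -0.62 (edgeR and DESeq2 adjusted p of the former 0.628 to 0.994 over all alternatives). The difference in share of junction reads ranged from -0.179 to -0.0347 percentage points for ATP5C1 and from -0.154 to -0.0784 for OMA1, and that in the share of the main circle from -6.82 to 0 for ATP5C1 (0 without MPA 3, and 0 when only circRNAs with at least 2 reads in at least 2 libraries were kept, since both leave out the reads of hsa_circ_0017673) and from -17.8 to -7.34 for OMA1. The numbers were not taken as pairs, since nothing in the labels says that a number marks a shared culture or day. Deviations of same-numbered libraries had correlations of -0.08, 0.15 and 0.32, and those of differently numbered ones ran from -0.27 to 0.11. With the replicate block 0 circRNAs and 0 host genes passed. The log2 fold changes were then -0.33 and -0.78 for hsa_circ_0007292 and hsa_circ_0002316. With 3740 to 5454 junction reads per library, circles of a few reads could not be compared.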

Other observations

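The table also listed 4 circRNAs on the mitochondrial chromosome itself, with 25 reads in all, each classed by the authors as sense overlapping and without a circBase identifier. The most abundant, 162 bases long and assigned to OK/SW-cl.16, had 2, 0 and 2 reads in control libraries 1 to 3 and 5, 2 and 7 in MPA libraries 1 to 3. It was chosen after its values were seen and was below the filter for testing, and the groups met at 2 reads.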
